A study of Mus musculus with 24 samples.

Results

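Transcript levels of 10 basement membrane genes were followed in murine pancreatic stellate cells (PSC) kept alone or beside pancreatic cancer cells. The genes were the laminin alpha chains Lama2, Lama4 and Lama5, the laminin beta chains Lamb1 and Lamb2, the laminin gamma chain Lamc1, the nidogens Nid1 and Nid2, perlecan (Hspg2) and agrin (Agrn). The rule names them and uses no measured value, but the genes were chosen with earlier results of these data known. All 10 were found among the 53801 genes of the expression table. All 10 passed the filter on low values (FPKM above 1 in at least 3 libraries) in every comparison, so no gene entered only through the group in which it was high.

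PSC were wild-type C57BL/6J cells, isolated from pooled pancreata of 7 to 10 week-old mice of both sexes and used at low passage. KPC cells are 1 murine pancreatic cancer cell line from a mouse in which p48-Cre, a pancreas-specific driver, switches on a heterozygous Trp53 R172H allele. In standard co-culture (distant paracrine) KPC cells grew on the floor of the well below the insert with PSC. In inverse co-culture (close paracrine) KPC cells grew on the underside of the 1 µm-pore membrane that carried PSC on its upper side. Each model had its own mono-cultured control PSC, and PSC were harvested at 24 h and 72 h, giving 8 groups with 3 libraries each. Libraries of the standard model were built from 450 ng of RNA and those of the inverse model from 120 ng, so the model and the RNA input cannot be told apart. Per the methods, inverse PSC met KPC cells 24 h before time counting began, and standard PSC only when it began. The medium in which PSC settled before that point also differed between the models. Exposure time and this medium cannot be told apart from the model either. The methods call the 3 libraries of a group biological replicates. Neither they nor the labels tie a replicate to a separate isolation, so p-values measure the spread between these libraries, which may be partly technical.

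Basement membranes are thin sheets of matrix that separate cell layers from the tissue around them. Laminins build the first network: each laminin is a trimer of 1 alpha, 1 beta and 1 gamma chain, and the alpha chain carries the domains that bind integrins and dystroglycan on the cell surface. Nidogens link laminin to the type IV collagen network, and the heparan sulfate proteoglycans perlecan and agrin connect both to growth factors and receptors. Quiescent stellate cells lie against basement membrane, and activated stellate cells turn to fibrillar collagens. Laminin with the alpha 5 chain is typical of mature epithelial and vascular basement membranes, with the alpha 4 chain of vessels and other mesenchymal tissue, and with the alpha 2 chain of muscle and nerve.

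Counted fragments per library, recovered from the steps of the FPKM values, ranged from 15932737 to 24798761. The fewest fragments for any of the 10 genes in any library were 1288 (Lama2), so counting error was small beside the spread in most groups. This may not hold for the tightest, such as Lama4 in inverse control at 72 h (SD 1.56% of the mean). The label PSC was checked against markers. Vim lay between 706 and 1994 FPKM, Pdgfrb between 126 and 194 and Col1a1 between 4918 and 10708, whereas the stellate markers Gfap and Lrat did not exceed 0.24 and 0.03 and were listed at 0 in 12 and 21 of 24 libraries. Endothelial (5 genes) and Schwann cell (4 genes) markers summed to at most 2.95 and 1.93 FPKM. The 6 epithelial markers summed to at most 2.41 FPKM in control and standard libraries, to 1.84, 6.48 and 43.0 in inverse co-culture at 24 h and to at most 7.78 at 72 h, with Epcam and Cdh1 below 1 throughout. Summed macrophage (4 genes, 3.52 to 97.4 FPKM), mesothelial (4 genes, 13.4 to 44.8) and adipocyte markers (4 genes, 22.7 to 829) varied widely. Wt1 (12.7 to 37.5 FPKM) made up most of the mesothelial sum. Msln, Upk3b and Lrrn4 exceeded 1 FPKM in only 1, 8 and 8 of 24 libraries. In such bulk RNA, fewer cells of a type and less RNA per cell cannot be told apart.

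Of the 10 genes, 3 (Lama5, Lama4 and Lamb1) passed the test in a comparison described here, and Lama5 and Lamb1 had an entry among the RefSeq promoters, which held 7 of the 10 genes. Lama5 (ENSMUSG00000015647, chromosome 2, 180176373 to 180225859, minus strand, GRCm38) and Lamb1 (ENSMUSG00000002900, chromosome 12, 31265234 to 31329644, plus strand) are shown with the bases before their annotated start, read 5′ to 3′ on the strand of the gene (GRCm38.p6, RefSeq). The windows are chr2:180225860-180226109 (minus strand, 250 bases) and chr12:31265043-31265233 (plus strand, 191 bases). Capitals mark the GC box letters GGGCGG and their reverse complement CCGCCC, which did not overlap each other.
Lama5: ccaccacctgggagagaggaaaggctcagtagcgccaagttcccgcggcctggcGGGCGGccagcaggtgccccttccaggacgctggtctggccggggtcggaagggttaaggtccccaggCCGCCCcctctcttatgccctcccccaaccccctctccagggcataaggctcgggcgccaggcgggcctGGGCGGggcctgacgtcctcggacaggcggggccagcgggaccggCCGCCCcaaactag
Lamb1: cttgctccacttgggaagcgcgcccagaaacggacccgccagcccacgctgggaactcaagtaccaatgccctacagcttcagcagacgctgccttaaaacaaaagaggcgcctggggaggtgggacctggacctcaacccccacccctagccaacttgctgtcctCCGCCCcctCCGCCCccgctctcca
The Lama5 window held 4 matches and the Lamb1 window 2. A window of 250 bases held at least 1 match in 32.7% of all 32851 promoter entries and 4 or more in 4.1%. The first 191 of these bases, the part of its entry that the Lamb1 window covers, held at least 1 in 23.1% and 2 or more in 9.2%. In the other entries this shorter window leaves out the bases next to the start. Neither window held TATAAA or its reverse complement TTTATA, which 12.4% of the longer and 8.8% of the shorter windows did. These matches describe letters and not binding sites.

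Lama5, the alpha chain of epithelial-type laminin, was lower in PSC beside KPC cells in each of the 4 co-culture comparisons, with no overlap between co-culture and control libraries. In inverse co-culture at 24 h it was 19.9, 28.1 and 24.8 FPKM in replicates 1 to 3, against 61.1, 38.3 and 70.8 in the control. The highest co-culture library thus lay below the lowest control library. The group means were 24.3 ± 4.16 and 56.7 ± 16.7 FPKM (SD, n = 3 each), a ratio of 0.43. At 72 h Lama5 was 32.4, 31.5 and 48.9 FPKM in inverse co-culture and 52.9, 82.2 and 90.9 in the control, again without overlap. The means were 37.6 ± 9.81 and 75.4 ± 19.9 FPKM (SD, n = 3 each), a ratio of 0.50.

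With limma on log2(FPKM + 0.5), Lama5 fell in the inverse model by 1.18 at 24 h (SE 0.22, 95% interval -1.68 to -0.67, adjusted p = 0.033) and by 0.98 at 72 h (SE 0.24, 95% interval -1.54 to -0.43, adjusted p = 0.037). It was the only member called in either comparison. At 24 h, 1 of the 10 genes was called lower against 1.39% of the 12827 genes tested, and at 72 h 1 of 10 against 9.57% of 13066, so the count at 72 h was near the background. Both calls lay close to the threshold. At 24 h limma no longer called Lama5 without inverse co-culture replicate 1 (adjusted p = 0.0609) or 2 (0.0773) or without control replicate 1 (0.132) or 3 (0.136). At 72 h the call was lost without co-culture replicate 1 (adjusted p = 0.124) or 2 (0.0723) or without control replicate 2 (0.0979) or 3 (0.129). Over the 6 fits that each left out 1 library, the log2 fold change stayed between -1.43 and -0.99 at 24 h and between -1.22 and -0.83 at 72 h.

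**Figure D1:**
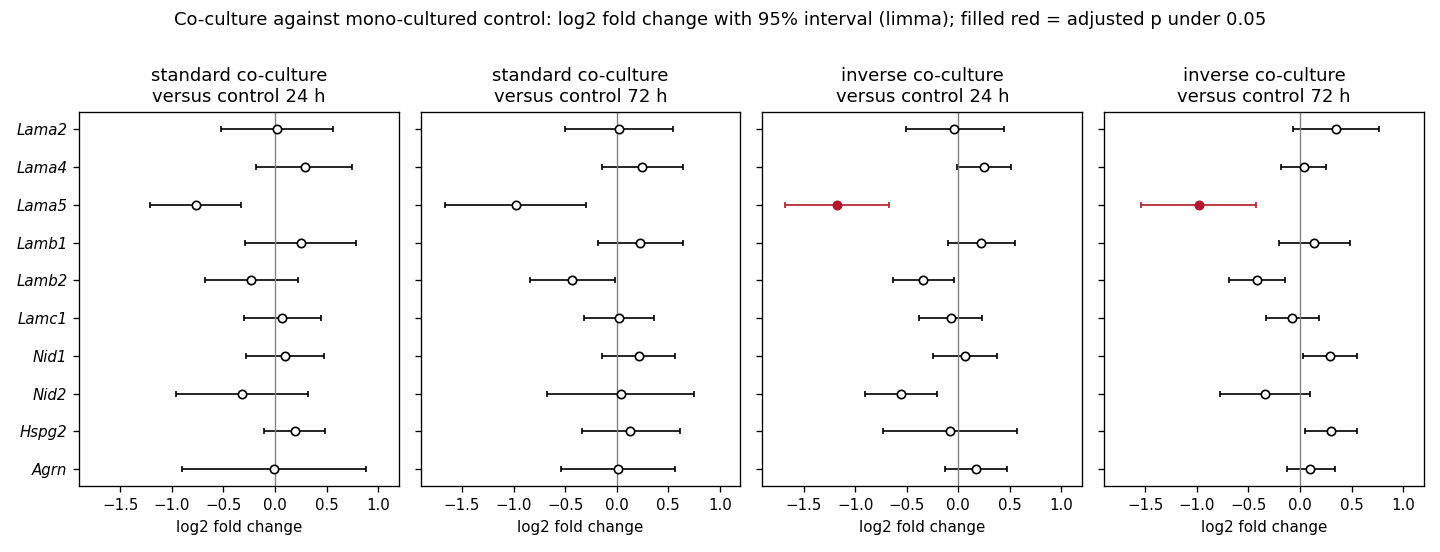
Log2 fold change of each of the 10 genes in co-culture against its own mono-cultured control, in 4 panels for the standard and inverse models at 24 h and 72 h. Points are limma estimates on log2(FPKM + 0.5) from 3 against 3 libraries, lines are 95% intervals, and filled red points have an adjusted p under 0.05. Lama5 was the lowest gene in all 4 panels, at -0.77, -0.98, -1.18 and -0.98, and it was called in the 2 inverse panels only.

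Lama5 was also lower in standard co-culture, where limma called 0 genes of any kind. The paper, with DESeq2 on counts, reports differentially expressed genes there at both times, so 0 is not the count of every method. At 24 h Lama5 was 25.4, 26.0 and 33.5 FPKM in co-culture and 41.0, 47.3 and 57.9 in the control. Every co-culture library was below every control library, and so below the control of the same replicate number. The log2 fold change was -0.77 (SE 0.18, limma adjusted p = 1.0). Equally numbered libraries of the standard model shared their deviations from the group means. A fit that took these numbers as pairs gave the same log2 fold change with an SE of 0.08 and a limma adjusted p of 0.02. The paired fit (replicate block) called 1 of the 10 genes lower at 24 h, against 0.56% of all genes tested. Over all genes it called 85 higher and 72 lower. At 72 h Lama5 was 25.4, 38.3 and 47.5 FPKM in standard co-culture and 80.6, 52.8 and 84.8 in the control. The groups did not overlap, but the log2 fold change of -0.98 (SE 0.28) had a limma adjusted p of 0.723.

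Without the block, standard co-culture had 0 of the 10 genes called at 24 h and 0 called at 72 h, as for all genes (0% called of 12859 and 0% of 12863). At an unadjusted p under 0.05, limma had 1 of the 10 genes at 24 h and 2 at 72 h, and 371 and 800 of all genes. With the block, limma had Lama5, Lama4, Nid2, Lamb1, Hspg2 and Lamb2 under 0.05 at 24 h, and 1932 of all genes. At 72 h the block had Lama5 and Lamb2, and 1388 of all genes. Limma voom on recovered fragments, run without the block, called 0 of the 10 genes at both times. The difference between the models was tested directly. The inverse minus standard effect on Lama5 was -0.40 at 24 h (95% interval -1.21 to 0.40) and -0.01 at 72 h (-0.81 to 0.80), and 0 of the 10 genes were called at either time (0% of 14452 genes at 24 h and 0% at 72 h). None of the 10 reached an unadjusted p under 0.05 in these 2 limma tests, against 182 and 501 of all genes. With the block the intervals were -1.05 to 0.24 at 24 h and -0.65 to 0.64 at 72 h. All these intervals are wide, and they do not show that both models act alike on Lama5.

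The number of genes whose groups did not overlap was counted in the same comparisons. Lower without overlap in standard co-culture at 24 h was 1 of the 10 genes (Lama5), against 4.38% of all genes. At 72 h it was 2 of 10 (Lama5 and Lamb2), against 9.78%. For the inverse model it was 2 of 10 at 24 h (Lama5 and Nid2), against 13.8%, and 2 of 10 at 72 h (Lama5 and Lamb2), against 28.8%. Higher without overlap were 1 of 10 in the standard model at 24 h (Hspg2, against 3.35% of all genes) and 0 of 10 at 72 h (3.36%). The inverse model had 0 of 10 at 24 h (7.38%) and 4 of 10 at 72 h (Lama2, Nid1, Hspg2 and Agrn, against 9.53%). Over the 8 groups the mean of Lama5 fell in the order inverse control 72 h (75.4 FPKM), standard control 72 h (72.7), inverse control 24 h (56.7), standard control 24 h (48.8), inverse co-culture 72 h (37.6), standard co-culture 72 h (37.1), standard co-culture 24 h (28.3) and inverse co-culture 24 h (24.3). All 4 controls stood above all 4 co-cultures, but each group overlapped the next in this order.

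**Figure D2:**
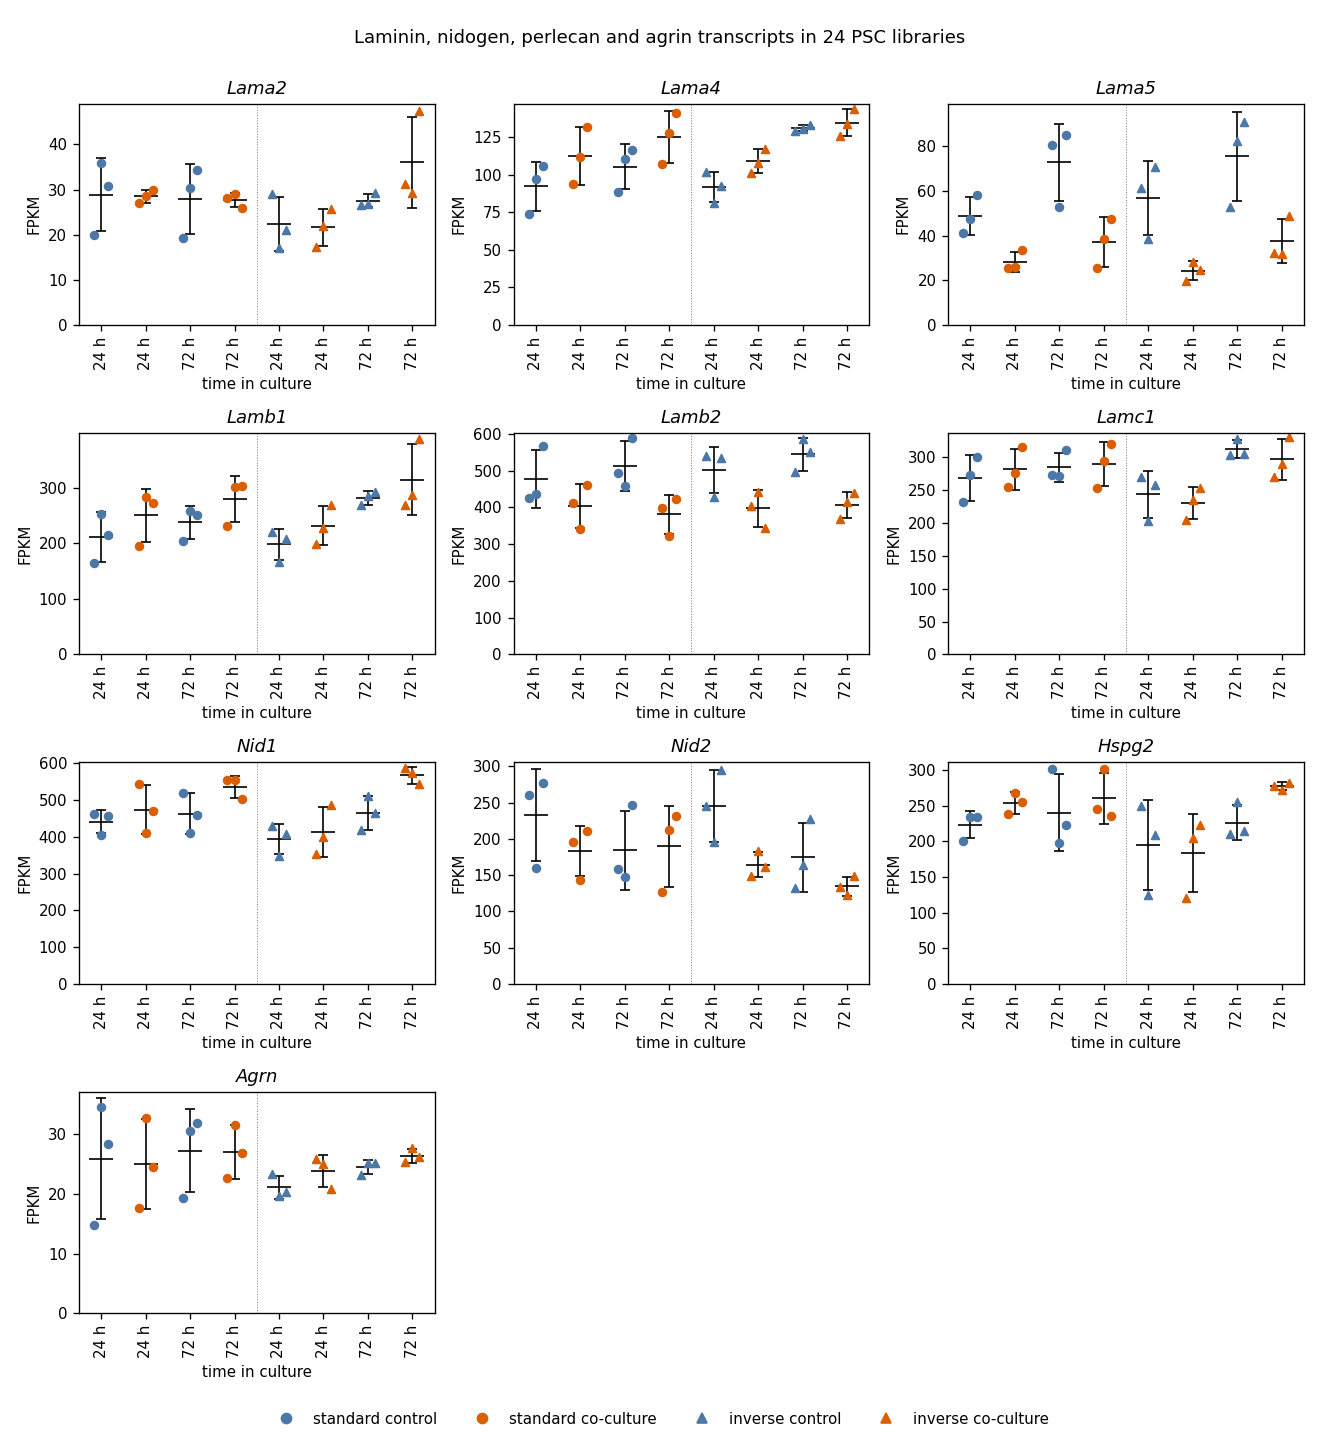
FPKM of each of the 10 genes in all 24 libraries, 1 panel per gene with its own axis from 0, in order of model (circles standard, triangles inverse), time and treatment (blue control, orange co-culture). Black bars are the mean ± SD of 3 libraries. Lama5 lies lower in each co-culture group than in its control, while Lama4 and Lamb1 in the inverse control lie higher at 72 h than at 24 h.

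Other RNAs also differed between co-culture and control in the inverse model. Pericyte and smooth muscle markers (Rgs5, Myh11, Cnn1, Notch3) summed to 757 to 835 FPKM in inverse control at 24 h and to 360 to 438 in inverse co-culture, and to 277 to 518 and 173 to 308 at 72 h. The ranges were apart at 24 h and overlapped at 72 h. In the standard model they overlapped at both times, with 238 to 1318 in control and 182 to 746 in co-culture at 24 h, and 134 to 1577 and 207 to 341 at 72 h. Rgs5 was above 0 in all libraries but did not exceed 4.20 FPKM. In the inverse model limma called 3 of the 4 markers lower at 24 h and 1 at 72 h, against 1.39% and 9.57% of all genes. The 1 at 72 h was Notch3 (-0.77, from 33.8 to 19.2 FPKM, limma adjusted p = 0.0383). The library with the highest epithelial marker sum, inverse co-culture at 24 h replicate 2, had the highest Lama5 of its group (28.1 FPKM), and without it the log2 fold change of Lama5 was -1.29. Acta2, the smooth muscle actin of activated stellate cells, fell in inverse co-culture at 24 h from 2849 to 1415 FPKM (limma adjusted p = 0.00514). At 72 h 0 of the 5 stellate or fibroblast markers tested were called, against 3.27% of all genes higher and 9.57% lower. Over time in the inverse control the pericyte and smooth muscle sum was lower at 72 h, whereas Lama5 had an estimate of 0.42 (limma adjusted p = 0.279). At 72 h in the inverse model all 4 adipocyte markers fell (median log2 fold change -3.73), and of 3 macrophage markers tested Adgre1 (-1.75, limma adjusted p = 0.0132) and Csf1r (-1.39, 0.0222) fell. Adgre1 was only 0.31 to 0.56 FPKM in these co-culture libraries and entered the test through the control group, where it was high. The macrophage sums there were 12.1 to 26.3 FPKM in control and 4.27 to 7.47 in co-culture. The part of these RNAs in the Lama5 result was not tested.

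Lama4 and Lama2, the other alpha chains, were not called in any co-culture comparison. Lama4 had log2 fold changes of 0.29, 0.25, 0.25 and 0.04 in the order standard 24 h, standard 72 h, inverse 24 h and inverse 72 h, with limma adjusted p from 0.359 to 1.0. Lama2 had 0.02, 0.02, -0.04 and 0.35. In inverse co-culture at 72 h Lama2 was 31.3, 29.2 and 47.5 FPKM, against 26.7, 26.8 and 29.2 in the control, and replicate 3 stood apart from the other two. The lowest co-culture library was just above the highest control library (29.21 and 29.16 FPKM), and the limma adjusted p was 0.228.

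Because Lama5 was lower and Lama4 was not, Lama5 made up a smaller share of the 3 alpha chain transcripts in co-culture. Of the FPKM sum, Lama5 was 28.8% ± 2.3 in standard control and 16.7% ± 1.0 in standard co-culture at 24 h, and 35.3% ± 7.8 and 19.2% ± 3.2 at 72 h (SD, n = 3 each). In the inverse model it was 32.8% ± 5.2 and 15.7% ± 1.9 at 24 h, and 31.9% ± 5.7 and 17.9% ± 2.2 at 72 h. The shares of control and co-culture libraries did not overlap in any of these 4 pairs. FPKM here rests on the mean length of the annotated transcripts of a gene, and per kb of the longest transcript the Lama5 shares were lower, with group means from 21.6% to 27.1% in the controls and from 11.1% to 13.8% in the co-cultures. Lama4 was the most abundant alpha chain in every library, with 46.9% to 73.1% of the FPKM sum and 56.0% to 78.4% per kb of the longest transcript. These shares follow from the levels above and were given no test.

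The beta chains were measured in the same way. Lamb2 was lower by 0.23, 0.43, 0.34 and 0.42 on the log2 scale in the 4 comparisons and was not called in any of them. In inverse co-culture at 72 h it was 369.5, 413.8 and 439.9 FPKM, against 497.5, 586.0 and 550.5 in the control, with no overlap (limma adjusted p = 0.0538). In standard co-culture at 72 h it was 399, 322 and 422 FPKM against 492, 458 and 588, again with no overlap (limma adjusted p = 0.779). Leaving out inverse co-culture replicate 3 brought the 72 h inverse difference just past the threshold (-0.47, adjusted p = 0.0398). Lamb1 had log2 fold changes of 0.25, 0.23, 0.22 and 0.14, with limma adjusted p from 0.544 to 1.0.

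The share of Lamb1 in the sum of both beta chains was thus higher in co-culture. Of the FPKM sum it was 30.7% ± 5.2 in standard control and 38.3% ± 6.6 in standard co-culture at 24 h, where the libraries overlapped, and 31.8% ± 3.8 and 42.4% ± 5.8 at 72 h, where they did not. In the inverse model it was 28.3% ± 0.6 and 36.9% ± 6.0 at 24 h, and 34.2% ± 1.3 and 43.3% ± 3.1 at 72 h, without overlap at either time (SD, n = 3 each). Which beta chain was the more abundant depended on the length scale: per kb of the longest transcript, Lamb1 was 48.3% and 56.5%, 49.6% and 60.7%, 45.5% and 55.1%, and 52.4% and 61.8% in the same order.

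**Figure D3:**
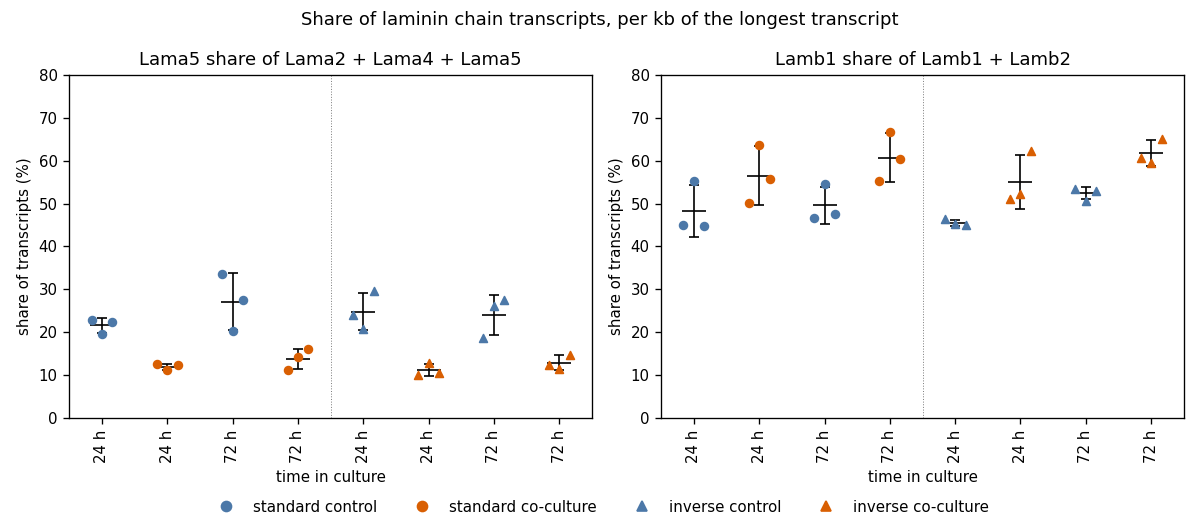
Share (in %) of Lama5 among the transcripts of Lama2, Lama4 and Lama5 (left) and of Lamb1 among those of Lamb1 and Lamb2 (right), per kb of the longest transcript, in each library (circles standard, triangles inverse, blue control, orange co-culture) with the mean ± SD of 3 libraries. The Lama5 share means are 21.6% to 27.1% in the controls and 11.1% to 13.8% in the co-cultures. The Lamb1 share means are 45.5% to 52.4% in the controls and 55.1% to 61.8% in the co-cultures.

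Lamc1, the gamma chain common to most laminin trimers, stayed within 0.08 of 0 on the log2 scale in all 4 co-culture comparisons (0.07, 0.02, -0.07 and -0.08). The 95% intervals reached from -0.38 to 0.45 at the widest. In the inverse model at 72 h it was 269, 290 and 330 FPKM in co-culture and 304, 328 and 305 in the control, with overlapping ranges.

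The nidogens, perlecan and agrin were not called in co-culture either. Nid2 was 149, 183 and 161 FPKM in inverse co-culture at 24 h and 246, 196 and 295 in the control, without overlap, with a log2 fold change of -0.56 (SE 0.15, limma adjusted p = 0.112). At 72 h in the inverse model it was 134, 122 and 149 FPKM against 132, 164 and 227, and these groups overlapped. Nid2 shares bases with Rtraf on the opposite strand, and fragments were counted without strand, so its reads may include some of that gene. Nid1 was 587, 574 and 543 FPKM in inverse co-culture at 72 h and 419, 511 and 466 in the control, higher without overlap, with a log2 fold change of 0.29 (limma adjusted p = 0.122). Hspg2 was 278, 272 and 282 FPKM and 210, 255 and 214 in the same groups, with 0.30 (limma adjusted p = 0.101). Agrn was 25.3, 27.6 and 26.1 FPKM and 23.2, 25.1 and 25.1, higher by 0.10 (limma adjusted p = 0.51). In the other 3 co-culture comparisons Nid1, Hspg2 and Agrn lay between -0.08 and 0.22 on the log2 scale, with Hspg2 higher without overlap in standard co-culture at 24 h.

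Over all 10 genes the median log2 fold change was 0.05 and 0.03 in standard co-culture and -0.05 and 0.07 in inverse co-culture (24 h and 72 h), beside -0.01, -0.09, -0.06 and -0.16 for all genes tested. The inverse 72 h comparison was thus shifted as a whole, with 427 genes called higher and 1251 lower. After scaling by the median of gene ratios 746 were called higher and 686 lower. With that scaling Lama5 was -0.83 (adjusted p = 0.0675) and Hspg2 0.46 (adjusted p = 0.0471), so limma then called Hspg2 higher in place of Lama5. At 24 h the same scaling changed the calls over all genes from 139 higher and 178 lower to 179 and 145, and Lama5 to -1.11 (adjusted p = 0.0568).

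Mono-cultured PSC were then compared over time, with the control libraries already used above. In the inverse control, Lama4 (ENSMUSG00000019846, chromosome 10, 38965515 to 39110188, plus strand, GRCm38) rose from 101, 81.1 and 92.6 FPKM at 24 h to 129, 130 and 133 at 72 h, and Lamb1 from 221, 167 and 207 to 269, 285 and 292. Neither gene overlapped between the times. Both changed by 0.52 on the log2 scale (SE 0.10 and 0.11, limma adjusted p = 0.00914 and 0.0162). These were the 2 genes of 10 called higher, against 10.2% of 13092 genes, and 0 of 10 were called lower, against 9.05%. Lamc1 rose without overlap from 269, 203 and 258 FPKM to 304, 328 and 305 but missed the threshold (0.37, limma adjusted p = 0.0587). These 3 of 10 genes were higher without overlap, against 22.8% of all genes. Nid2 was the only member with an estimate below 0 (-0.51, adjusted p = 0.118).

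In the same inverse controls Acta2 fell by 1.43 on the log2 scale (adjusted p = 0.00263), and the summed adipocyte markers were 153 to 234 FPKM at 24 h and 393 to 829 at 72 h. Of 3 macrophage markers tested, Adgre1 (1.08, limma adjusted p = 0.0246) and Csf1r (0.69, 0.0393) rose. Adgre1 was 0.79 to 1.2 FPKM at 24 h and passed the filter through the 72 h group, where it was high. The 72 h libraries are also the controls of the adipocyte and macrophage falls in inverse co-culture, so these are not separate findings. Acta2 shares the 24 h libraries in the same way. The part of these markers in the Lama4 and Lamb1 result was not tested. In the standard control 0 of the 10 genes were called over time (0% of 12963 genes, 127 of them at an unadjusted p under 0.05 by limma and none of the 10). There Lama4 and Lamb1 changed by 0.20 and 0.19. Between the controls of the 2 models limma called 0 of the 10 genes at 24 h (0% of 12903) and 0 of 10 at 72 h (0% of 13106). At an unadjusted p under 0.05 the counts were 0 and 1 of the 10 genes, and 225 and 810 of all genes. The 1 gene was Lama4 at 72 h, higher by 0.32 in the inverse control (95% interval 0.0 to 0.64, adjusted p = 0.8). Lama4 and Lamb1 (0.25, limma adjusted p = 0.827) were higher there without overlap, 2 of the 10 genes against 11.1% of all.

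The levels of different genes can be set beside each other only per length. Per kb of the longest transcript and scaled to library size, Nid1 was the highest gene, with a median of 267.5 over 24 libraries, and it exceeded Hspg2, the next, in all 24. Hspg2 (161), Nid2 (120.1), Lamb1 (114), Lamb2 (91.8) and Lamc1 (80.2) followed, and each exceeded the next in only 14 to 18 of 24 libraries, so this part of the order was not fixed. Lama4 (48.5) was below Lamc1 and above Agrn (15.7) in all 24 libraries. Agrn, Lama5 (12.7) and Lama2 (10.7) again changed places between libraries. Nid1 lay above 99.4% of all genes detected and Lama2 above 82.3%. Lama5 had the widest range, with 4.57 times as much in the highest as in the lowest library, and Lamc1 the narrowest with 1.63 times.

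**Figure D4:**
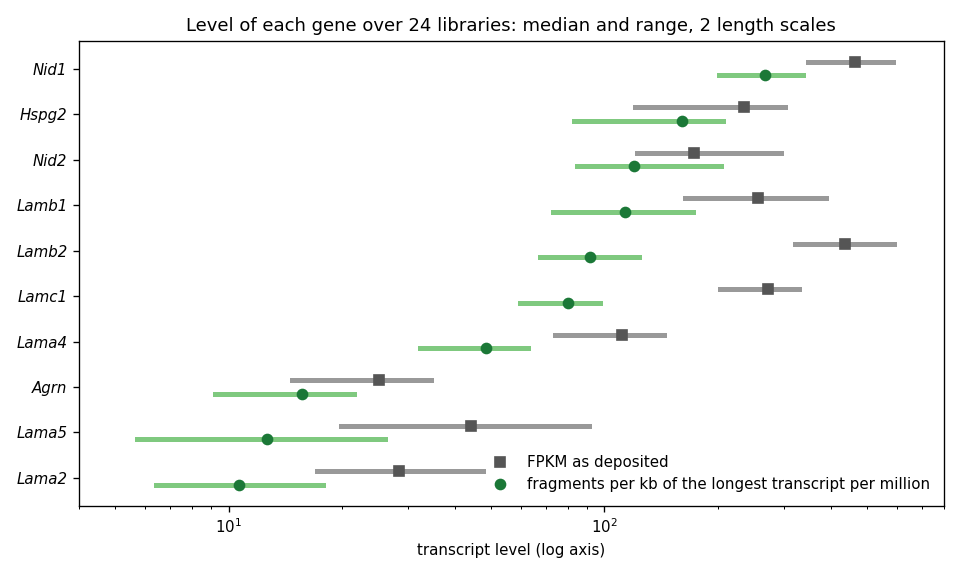
Median (symbol) and range (bar) of each of the 10 genes over 24 libraries on a log axis, as deposited FPKM (grey squares) and as fragments per kb of the longest transcript, scaled to library size (green circles). Genes are ordered by the second scale. Lamb2 moves furthest between the scales, from a median of 438 to 91.8, as its mean transcript length is 1180 bases and its longest transcript 5629.

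Correlations between genes over the 24 libraries were computed on log2(FPKM + 0.5) as a description. The libraries share treatments, times and control groups and are not independent draws. Lama4 and Lamb1 had the highest Pearson r of all pairs (0.93), and it was 0.86 after group means were removed. Each was the other's closest gene among the 14452 compared. Lamc1 followed both (r = 0.75 with Lama4 and 0.78 with Lamb1). Lama5 correlated most with Lamb2 among the 10 genes (0.80, or 0.59 without group means) and hardly with Lama4 (0.07). Without the group means its r with Lama4 was 0.56, and with Lamc1 0.80.

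The genes outside the list whose pattern was most like that of Lama5 were Svil (supervillin, an actin-binding protein; r = 0.88) and Notch3 (a receptor of pericytes and smooth muscle; r = 0.87). For Lamb2 they were Ebf1 (0.92) and Wasf3 (0.89), for Lama4 after Lamb1 Fndc3b (0.89), for Lamb1 after Lama4 Otud7b (0.87) and for Lamc1 Kdm5a (0.91) and Dync1h1 (0.90). Nid1 was most like Sec24a (0.82) and Col4a2, a type IV collagen chain (0.81). Agrn was most like Icam1 (0.93) and Zfp36l1 (0.92), and Lama2 like Amotl1 (0.85) and Mtor (0.82). Nid2 (Arid5b 0.76, Ppp1cb 0.75) and Hspg2 (Cbl and Wdfy3, 0.79 each) had the weakest matches.

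**Figure D5:**
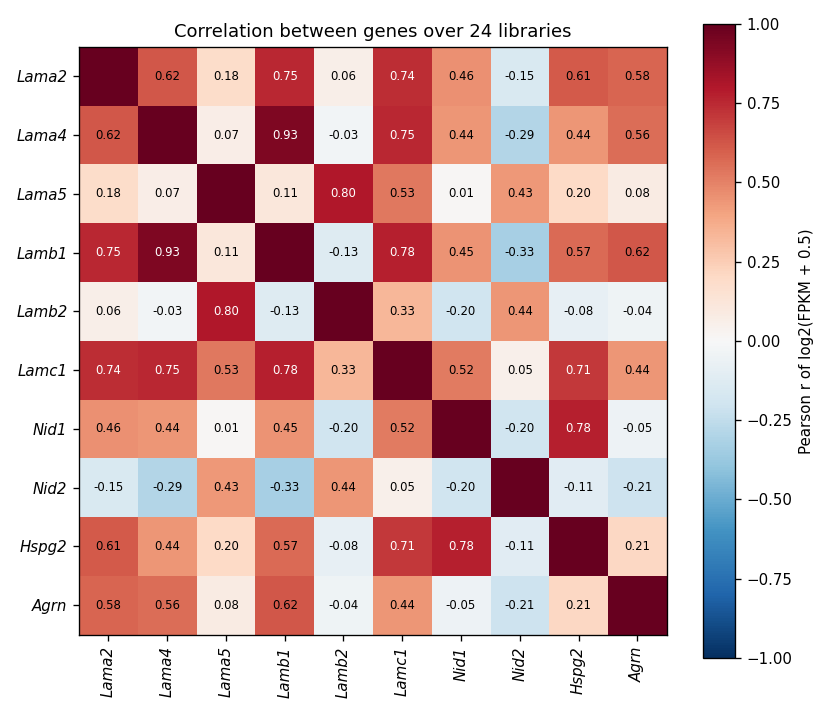
Pearson r between the 10 genes over 24 libraries on log2(FPKM + 0.5), printed in each cell and coloured from blue (-1) to red (1). Lama4, Lamb1 and Lamc1 form 1 block (0.75 to 0.93), Lama5 pairs with Lamb2 (0.80), and Nid2 has negative values with 6 genes.

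Other genes of the basement membrane were taken from 5 lists, also chosen with earlier results of these data known. Their counts stand beside 1.08% of all genes called higher and 1.39% lower in inverse co-culture at 24 h, and 3.27% higher and 9.57% lower at 72 h. Of 5 further laminin chains 3 were tested, and 1 passed the test in co-culture: Lamb3, the beta chain of epithelial laminin, fell in inverse co-culture at 72 h from 3.05 to 0.38 FPKM (log2 fold change -1.99, limma adjusted p = 0.0163). Lamb3 was below 1 FPKM in every co-culture library and entered the test through the control group, where it was high. Of 8 type IV, XV and XVIII collagen genes 5 were tested, and 1 rose: Col15a1 in inverse co-culture at 24 h, from 533 ± 58.3 to 944 ± 130 FPKM (SD, n = 3 each; log2 fold change 0.82, limma adjusted p = 0.0168). Col15a1 was also called higher over time in the inverse control (0.73, limma adjusted p = 0.00598), against the same 24 h control libraries.

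Among 10 receptors 9 were tested, and 2 fell at each time in inverse co-culture while none rose. Itga1, an integrin chain that binds collagen and laminin, fell at 24 h (-0.91, limma adjusted p = 0.0257) and 72 h (-0.84, 0.0236). Bcam, which binds the laminin alpha 5 chain, fell at 24 h from 105 to 62.6 FPKM (-0.73, limma adjusted p = 0.03). Itga6, the alpha chain of laminin-binding integrins, fell at 72 h from 14.2 to 1.23 FPKM (-3.09, limma adjusted p = 0.00269). Over time in the inverse control Itga6 rose (1.91, limma adjusted p = 0.00252). Both comparisons use the same 72 h control libraries and are not separate findings. The median of the 9 receptors in the inverse model was -0.33 at 24 h and -0.52 at 72 h, beside -0.06 and -0.16 for all genes.

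Of 7 dystroglycan glycosylation genes 1 fell at 72 h in inverse co-culture (Pomt1, -0.63, limma adjusted p = 0.0157). Of 10 tested genes for other basement membrane glycoproteins and assembly factors 1 fell at 24 h (Tinagl1, -1.46, limma adjusted p = 0.0249), and at 72 h 4 fell and 1 rose. Smoc1 was lowest (-2.82, from 9.96 to 0.96 FPKM, limma adjusted p = 0.00385), followed by Fras1 by p-value (-1.92, 0.00841), and Frem1 rose (0.76, 0.0193). Fras1 was below 1 FPKM in every co-culture library and Smoc1 and Itga6 in some, so these genes too passed the filter through the control group. The adipocyte markers moved in the same 72 h libraries, with sums of 393 to 829 FPKM in the inverse control and 22.7 to 93.6 in inverse co-culture, and their part in the Itga6 and Smoc1 results was not tested. In standard co-culture 0 genes of these 5 lists were called without the block. Over time in the inverse control, Itgb1, the common beta chain of these integrins, fell from 903 to 684 FPKM (-0.41, limma adjusted p = 0.0337), and Npnt, an integrin ligand of basement membranes, fell from 19.4 to 7.21 FPKM (-1.40, 0.00416). Smoc1 (2.02, limma adjusted p = 0.00286) and Frem1 (0.74, 0.0274) rose. The 72 h control libraries here are those of the co-culture comparison, so the rise and fall of Smoc1 share them.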

How the data were processed

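Polyadenylated RNA of PSC was sequenced in 24 libraries. Per the labels and the methods, the authors aligned reads with HISAT2 2.0.5 to GRCm38, counted them with featureCounts 1.5.0-p3 without strand, and deposited FPKM. Their DESeq2 1.20.0 comparisons were not used here. Ensembl IDs were named with GENCODE M21. The length behind the deposited FPKM matched the mean length of a gene's annotated transcripts, rounded down; with it, 94.3% of the 28892 genes above 0 gave whole fragments (within 0.05) in all libraries, and the totals per library follow from this. All 24 value columns matched a sample title (0 unmatched).

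Groups were compared with limma 3.58.1 (R 4.3.3, moderated test with trend, two-sided) on log2(FPKM + 0.5) for genes with FPKM above 1 in at least 3 libraries, with Benjamini-Hochberg adjustment over all genes tested and 0.05 as threshold. Each pair of groups was fitted on its 6 libraries and the difference between models on all 24. An exact permutation test of 3 against 3 libraries cannot go below 0.1 and was not used. In the standard model libraries with equal numbers deviated together (r = 0.478 to 0.823 over genes, each highest with its own number), so the numbers were taken to pair them; this comes from the data and not from the labels. In the inverse model they did not (-0.171 to 0.148). The script was tested on simulated data. Alternatives were other pseudocounts (1, 0.1), filters (none, mean FPKM above 5), scaling, a replicate block, limma voom on recovered fragments, a model of all or 12 libraries, and leaving out each library.

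All 10 genes are named, and further genes only where called, at most the 2 with the smallest p per list and direction; for likeness, the 2 genes with the highest r. The genes and lists were chosen with earlier results of these data known. A further detail of the genotype of the KPC cells is not reported here.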

Additional observations from a re-analysis of the deposited data

How the results depend on the processing

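Lama5 kept a log2 fold change below 0 in all 4 co-culture comparisons under each alternative run, but its calls moved. In inverse co-culture at 24 h the number of the 10 genes called was 1, and it was 0 without a filter (Lama5 adjusted p = 0.135), with scaling by the median of gene ratios (0.0568), with the replicate block (0.092) and with all 24 libraries in one model (0.101), and 2 with voom, which added Nid2 (0.0463). At 72 h it was 1, and it was 0 without a filter (Lama5 0.0845), and 2 with mean FPKM above 5 and with voom, which added Lamb2 (0.0477 and 0.0386). With the scaling it was also 1 at 72 h, but for Hspg2 in place of Lama5. In the inverse control over time it was 2, and it was 1 without a filter (Lama4) and 0 with all 24 libraries in one model. For standard co-culture at 24 h it was 0, and 1 with the replicate block (Lama5, 0.02), whereas at 72 h the block left 0. In the inverse model, where libraries with equal numbers did not deviate together, the block left 1 at 72 h and 2 over time, and 0 at 24 h. The cause of these changes was not tested. Leaving out 1 library at a time gave 0 to 1 at 24 h and 0 to 2 at 72 h in inverse co-culture, and 2 to 3 in the inverse control over time, with Lama2 higher added without replicate 1 at 24 h and Nid2 lower without replicate 3 at 72 h; voom also gave 3 there, adding Lamc1. The comparisons not named here gave 0 under all alternatives. Of 588 single-gene values under alternatives, which cover the 4 co-culture comparisons and Lama4 and Lamb1 in the inverse control over time, 17 lost a call, 6 gained one and 565 stayed on their side of the threshold, and 33 differed in sign with no call in either fit. The longest-transcript scale, chosen after seeing the data, kept 8 of 32 group means of the chain shares within 1 SD.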
